A study of Mus musculus with 16 samples.

Results

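Expression in the embryonic mouse palate is described here for 9 genes, Wdfy1, Tmem87a, Dnph1, Ang, Zfp874a, Trim12c, Cwc22, Commd9 and Depdc7. These 9 genes were selected on the measured values themselves, namely on levels that split between arrays of a group or on a genotype difference at a stage, and they had been put together under a working heading of segregating strain alleles. Every probe set that the platform annotation gives to one of them alone was taken, which made 18 of 45101 probe sets for 9 of 18194 genes, and 14 of these were among the 19740 probe sets that had a log2 value of at least 4 on at least 3 of 16 arrays. Because those values chose the genes, their levels and genotype differences are given as a description. Where calls of the fit over all probe sets and intervals are given for the members, they come from the same values and support nothing. In the heading's terms, 5 genes (Wdfy1, Tmem87a, Dnph1, Ang and Zfp874a) had separate high and low arrays within a stage, while Trim12c, Cwc22, Commd9 and Depdc7 did not. The arrays measured RNA and no allele, every sample's strain label reads C57BL/6J, and whether any embryo carried an allele of another strain was not tested.

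The mutants were embryos homozygous for a floxed gene and carrying Wnt1-Cre, in which Cre recombinase deletes the floxed gene in cells of the neural crest lineage, where the Wnt1 driver is active. The controls were embryos homozygous for the floxed gene without Wnt1-Cre, also called wild type in the labels, so both genotypes carried the floxed alleles. Palate mesenchyme was hybridised from 3 mutants and 3 controls at embryonic day 13.5 (E13.5) and from 5 mutants and 5 controls at E14.5, where mutants 1 and 2 and controls 1 and 2 formed batch 1 and the other arrays batch 2. Cells of the palate outside the neural crest lineage keep the floxed gene in such a mutant, and the number of embryos behind an array is not stated.

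As background, inbred mouse strains differ in single bases, in small insertions and deletions and in the copy number of whole genes, and neighbouring differences are inherited together. A mouse line moved onto another strain by crossing keeps donor sequence around the selected locus, and elsewhere until enough backcrosses have been made. A short array probe pairs less well with RNA that differs from it by a base, so a probe set can read a sequence difference as a difference in level. Large paralogue families such as the angiogenins, the TRIM5-like genes and the KRAB zinc finger genes add a further uncertainty, since probes may pair with more than 1 member.

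The values were log2 expression values normalised by the authors, and their medians differed by stage, with array medians of 3.42 to 3.45 in E13.5 mutants and 3.39 to 3.40 in E13.5 controls, against 1.63 to 1.65 in E14.5 mutants and 1.63 to 1.66 in E14.5 controls. Levels were therefore compared within a stage only. Over probe sets, r between arrays of the same group ran between 0.991 and 0.997. All 9 palate mesenchyme markers passed the filter on low values. So did all 9 oral epithelium markers on the array and all 10 skeletal muscle markers, so passing it does not single out mesenchyme. By Xist and Y-linked genes, all 6 E13.5 arrays came from females, while at E14.5 mutants 1, 2 and 3 and control 4 were female and the other arrays male. One array stood apart most often: of the 93 tested probe sets (0.471%) whose E14.5 arrays were divided by a gap of at least 1 on the log2 scale, E14.5 control 5 stood alone, and low, in 32, and E14.5 mutant 1 stood alone in 13, low in 3 of them. At E13.5 the same gap was found in 41 probe sets (0.208%), and mutant 2 stood alone in 12 of them, low in 3 of these. Skeletal muscle markers averaged 7.74 in E14.5 mutant 1 and 5.62 in E14.5 controls 1 and 3. The other E14.5 arrays lay between 6.34 and 7.05. Neuron markers (5 of 7 tested) averaged 5.46 in E13.5 mutant 2 and 4.13 to 4.52 in the other E13.5 arrays. What part such tissue differences had in the gaps was not tested. Fewer cells of a type and less RNA per cell cannot be told apart in such tissue samples, and spread between arrays may be partly technical.

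Promoter sequences of Tmem87a and Dnph1 are shown because Tmem87a had the widest gap between arrays of the 14 member probe sets at E14.5 and Dnph1 at E13.5. They also had the most followers on their own chromosome, described further on, an order that Tmem87a did not keep without E14.5 control 5 (4 followers, against 8 for Ang 1438937_x_at) or with genotype centred (5 for each). RefSeq promoter windows (GRCm38.p6, from 250 bases before to 50 bases after the gene start) were held for 8 of the 9 genes, and none for Wdfy1. The window of Tmem87a is chr2:120404067-120404366 on the minus strand and that of Dnph1 is chr17:46496539-46496838 on the plus strand, each printed 5′ to 3′ with the matches to 5 searched motifs in capitals.
Tmem87a: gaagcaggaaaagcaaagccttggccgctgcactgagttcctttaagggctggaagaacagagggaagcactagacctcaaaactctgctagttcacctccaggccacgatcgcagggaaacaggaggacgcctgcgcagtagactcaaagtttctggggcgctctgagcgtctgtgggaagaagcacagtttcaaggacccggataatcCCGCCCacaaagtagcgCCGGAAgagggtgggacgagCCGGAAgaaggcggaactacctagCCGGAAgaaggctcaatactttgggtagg
Dnph1: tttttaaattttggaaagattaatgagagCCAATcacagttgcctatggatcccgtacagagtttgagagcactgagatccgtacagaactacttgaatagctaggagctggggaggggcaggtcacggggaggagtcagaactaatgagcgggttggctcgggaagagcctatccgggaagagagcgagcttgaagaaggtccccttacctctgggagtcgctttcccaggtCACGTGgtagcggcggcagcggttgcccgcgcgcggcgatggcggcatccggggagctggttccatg
Both strands were searched for the TATA box in the form TATAAA, for the CCAAT box by exactly those letters, for the GC box written GGGCGG, for the E-box written CACGTG and for the ETS core written CCGGAA. No matches overlapped in these windows. In the window of Tmem87a a GC box started at position -40 on the opposite strand, and ETS cores started at -23, -3 and 22, where 1 is the first base of the gene. The window of Dnph1 held a CCAAT box at -221 and an E-box at -17. Of 27025 promoter windows of this length, 14.2% held the TATA box, 37.9% the CCAAT box, 35.9% the GC box, 7.24% the E-box and 15.2% the ETS core. These matches describe letters only.

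Among the genes with separate high and low arrays, Wdfy1 encodes a protein of early endosomes with a FYVE zinc finger and WD40 repeats, and it takes part in Toll-like receptor signalling. Probe set 1435588_at of Wdfy1 read 4.59, 4.69, 4.36, 4.59 and 4.30 in E14.5 mutants 1 to 5, against 4.94, 7.06, 6.69, 4.70 and 6.84 in E14.5 controls 1 to 5. Controls 2, 3 and 5 were high, controls 1 and 4 lay close to the mutants, and the genotypes did not overlap because the lowest control was 4.70. At E13.5 the same probe set read 6.72, 6.83 and 6.72 in mutants and 6.95, 6.86 and 6.76 in controls, with no high and low arrays.

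The other 2 tested probe sets of Wdfy1 divided the E14.5 arrays in the same way. Probe set 1437358_at read 3.94, 4.51, 3.95, 4.16 and 4.09 in mutants, against 4.28, 6.46, 6.28, 4.29 and 6.52 in controls. Probe set 1424749_at read 1.93, 2.21, 1.83, 2.08 and 2.19 in mutants, against 2.30, 4.23, 3.92, 2.28 and 3.57 in controls. Its low arrays, at 1.83 to 2.30, lay just above the E14.5 array medians of 1.63 to 1.66. In all 3 probe sets 3 control arrays formed the high set and 7 arrays the low set, the genotypes overlapped for 1437358_at only, and the pairwise r between probe sets was 0.961 to 0.988 over the 16 arrays (centred within E13.5, E14.5 batch 1 and E14.5 batch 2). Such an r, here and below, describes points that share arrays and the authors' normalisation, and where arrays fall at separate levels it says mainly that the same arrays were high or low. At E13.5 1437358_at read 6.55, 6.49 and 6.52 in mutants and 6.69, 6.73 and 6.74 in controls, a small step with no overlap. The untested probe sets lay near the floor of the scale at E14.5, where 1447543_at had a median of 0.45 in mutants and in controls, and 1453426_a_at had medians of 0.88 in mutants and 1.11 in controls.

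Tmem87a encodes a membrane protein of the Golgi apparatus. Its only probe set, 1424454_at, read 5.99, 6.18, 6.64, 6.67 and 6.54 in E14.5 mutants, against 3.39, 6.28, 6.31, 2.79 and 2.33 in E14.5 controls. Controls 1, 4 and 5 were low, controls 2 and 3 lay within the range of the mutants, and a gap of 2.60 separated the sets, which ranked 13 among all tested probe sets at that stage. Probe sets of Xist and of the Y-linked Eif2s3y, Kdm5d and Uty, which divided females from males, were among those with wider gaps. They also count among the 93 with a gap of at least 1. At E13.5 mutants had 6.44, 6.56 and 6.40 and controls had 6.54, 6.49 and 6.55, a range of 0.16 over both genotypes.

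Dnph1 encodes a hydrolase that cleaves deoxynucleoside monophosphates. Probe set 1460713_at read 2.09, 4.02, 2.42, 4.82 and 2.78 in E14.5 mutants, against 1.93, 5.24, 2.50, 4.53 and 2.23 in E14.5 controls. Arrays 2 and 4 of each genotype were high and arrays 1, 3 and 5 low, so the genotypes overlapped throughout. At E13.5 mutants had 5.41, 5.45 and 6.04, and controls had 5.47, 5.45 and 3.44. Control 3 was low there by a gap of 1.97, and mutant 3 was the highest array.

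Ang encodes angiogenin, a secreted ribonuclease that cleaves transfer RNA and promotes vessel growth. Probe set 1438936_s_at read 3.76, 0.82, 1.67, 1.60 and 1.73 in E14.5 mutants, against 3.98, 0.82, 1.71, 2.05 and 1.73 in E14.5 controls. Mutant 1 and control 1 were high, and mutant 2 and control 2 had the lowest values, all 4 of these arrays belonging to batch 1. Apart from mutant 1 and control 1, the arrays read 0.82 to 2.05, around the E14.5 array medians of 1.63 to 1.66. Little can be read from the order of arrays at such low values. In probe set 1438937_x_at mutants had 3.45, 1.90, 2.78, 2.26 and 2.67, and controls had 3.17, 2.08, 2.46, 2.80 and 2.52, with the same arrays at the top and at the bottom.

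At E13.5 the 2 tested Ang probe sets also agreed on their arrays. Probe set 1438936_s_at of Ang read 5.70, 6.33 and 5.74 in mutants and 5.77, 6.48 and 6.38 in controls. Mutant 2 and controls 2 and 3 were high, divided from the other arrays by 0.56, and the gap was 0.54 for 1438937_x_at. The r between them was 0.887. The untested 1450717_at had medians of 1.54 in E14.5 mutants and 1.59 in E14.5 controls, with mutant 1 highest at 2.02.

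Zfp874a encodes a KRAB zinc finger protein, of a class that recruits silencing complexes to DNA. Probe set 1434171_at read 4.91, 2.74, 4.63, 4.67 and 4.34 in E14.5 mutants, against 2.32, 5.02, 4.47, 4.64 and 3.90 in E14.5 controls. Mutant 2 and control 1, both of batch 1, were low, and the other 8 arrays lay between 3.90 and 5.02. At E13.5 mutants had 5.10, 5.41 and 5.26 and controls had 5.47, 5.45 and 5.22, within a range of 0.37. No gene of these 5 divided the E14.5 arrays into the females and the males.

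**Figure D1:**
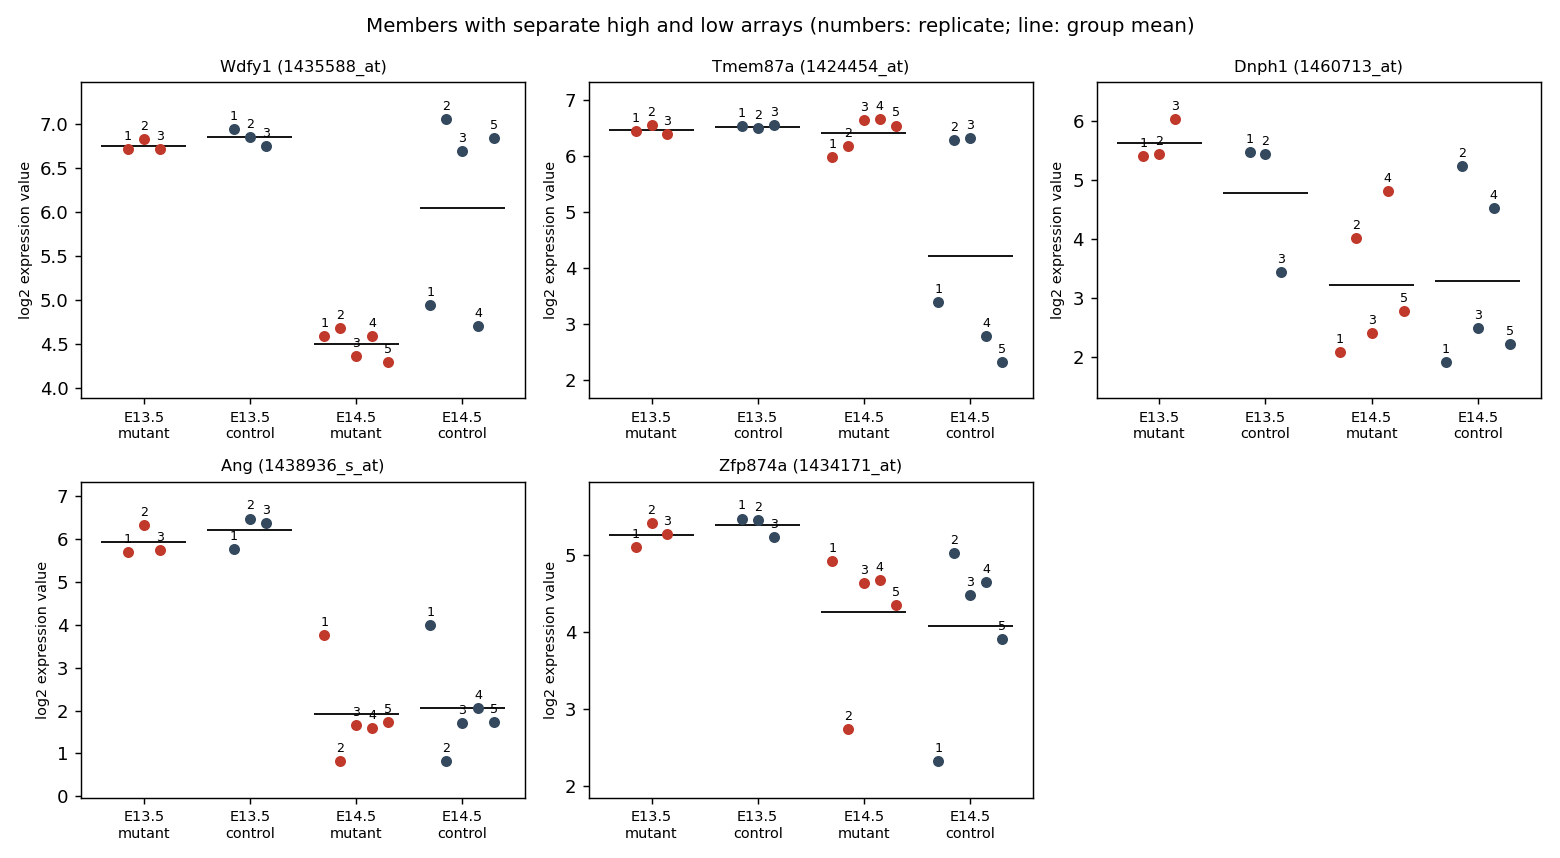
Log2 expression value (vertical axis) of 1 probe set each of Wdfy1, Tmem87a, Dnph1, Ang and Zfp874a in E13.5 mutants, E13.5 controls, E14.5 mutants and E14.5 controls; each point is an array with its replicate number and lines are group means. Separate levels appear among E14.5 arrays, such as 3 low controls for Tmem87a, and at E13.5 Dnph1 has 1 low control at 3.44.

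A gap of at least 1 divided 7 member probe sets at E14.5 and 1 at E13.5, all of these 5 genes. Split levels chose the genes, so nothing is read from the count beside the shares of 0.471% and 0.208% over all probe sets. Closest above that gap at E14.5 lay Zfp874a with 1.16 and Dnph1 with 1.24, and next below it lay Ang 1438937_x_at with 0.37. The high and low arrays differed from gene to gene: E14.5 control 1, for example, was low for Tmem87a and Zfp874a and high for Ang.

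The remaining 4 genes kept tight values within each group and differed between genotypes at 1 or both stages. Trim12c belongs to the TRIM5-like genes, whose proteins are E3 ubiquitin ligases that restrict retroviruses. Probe set 1443858_at read 6.31, 5.89 and 6.08 in E13.5 mutants, against 6.82, 6.84 and 6.69 in E13.5 controls. All mutants were lower and the genotypes did not overlap. At E14.5 they overlapped, with 6.20, 6.29, 6.35, 6.28 and 6.06 in mutants, against 6.29, 6.47, 6.34, 6.26 and 6.30 in controls. The untested 1445271_at of Trim12c had medians of 2.02 in E13.5 mutants and 2.13 in E13.5 controls.

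Cwc22 encodes a splicing factor that brings EIF4A3 to the spliceosome for the exon junction complex, and in mice the gene lies in a segment known to vary in copy number. Probe set 1438278_a_at read 6.39, 6.50 and 6.30 in E13.5 mutants, against 6.99, 7.09 and 7.02 in E13.5 controls. All mutants were lower and the genotypes did not overlap. At E14.5 mutants had 7.52, 7.49, 7.30, 7.37 and 7.24, and controls had 7.05, 7.42, 7.22, 7.33 and 7.41, with control 1 lowest and the genotypes overlapping.

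Commd9 encodes a subunit of the COMMD/CCC complex, which recycles receptors from endosomes. Probe set 1438644_x_at read 7.33, 7.29 and 7.21 in E13.5 mutants, against 6.63, 6.75 and 6.64 in E13.5 controls. Here the mutants were higher with no overlap, and at E14.5 they overlapped with 7.15, 7.03, 7.38, 7.24 and 7.33 in mutants and 7.26, 6.93, 7.18, 7.29 and 7.23 in controls. Other probe sets of Commd9 did not repeat the E13.5 difference.

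Probe set 1428155_at of Commd9 read 5.77, 5.85 and 5.81 in E13.5 mutants and 6.11, 5.94 and 5.90 in E13.5 controls, the opposite order. Probe set 1454781_x_at read 6.18, 6.41 and 6.26 in E13.5 mutants and 6.17, 6.22 and 6.05 in E13.5 controls, and these overlapped. At E14.5 1428155_at of Commd9 read 4.95, 4.79, 4.86, 4.75 and 4.65 in mutants, against 4.59, 4.67, 4.71, 4.76 and 4.39 in controls, and 1454781_x_at lay between 5.40 and 5.64 in mutants and between 5.38 and 5.66 in controls, both overlapping. No single direction can be given for the gene over its 3 probe sets.

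Depdc7 encodes a protein with a DEP domain. Probe set 1424303_at read 4.60, 4.56 and 4.54 in E13.5 mutants, against 4.75, 4.77 and 4.81 in E13.5 controls. At E14.5 it read 3.94, 4.08, 4.08, 3.87 and 4.10 in mutants, against 3.40, 3.70, 3.65, 3.39 and 3.68 in controls. The genotypes did not overlap at either stage, but mutants were the lower group at E13.5 and the higher group at E14.5.

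**Figure D2:**
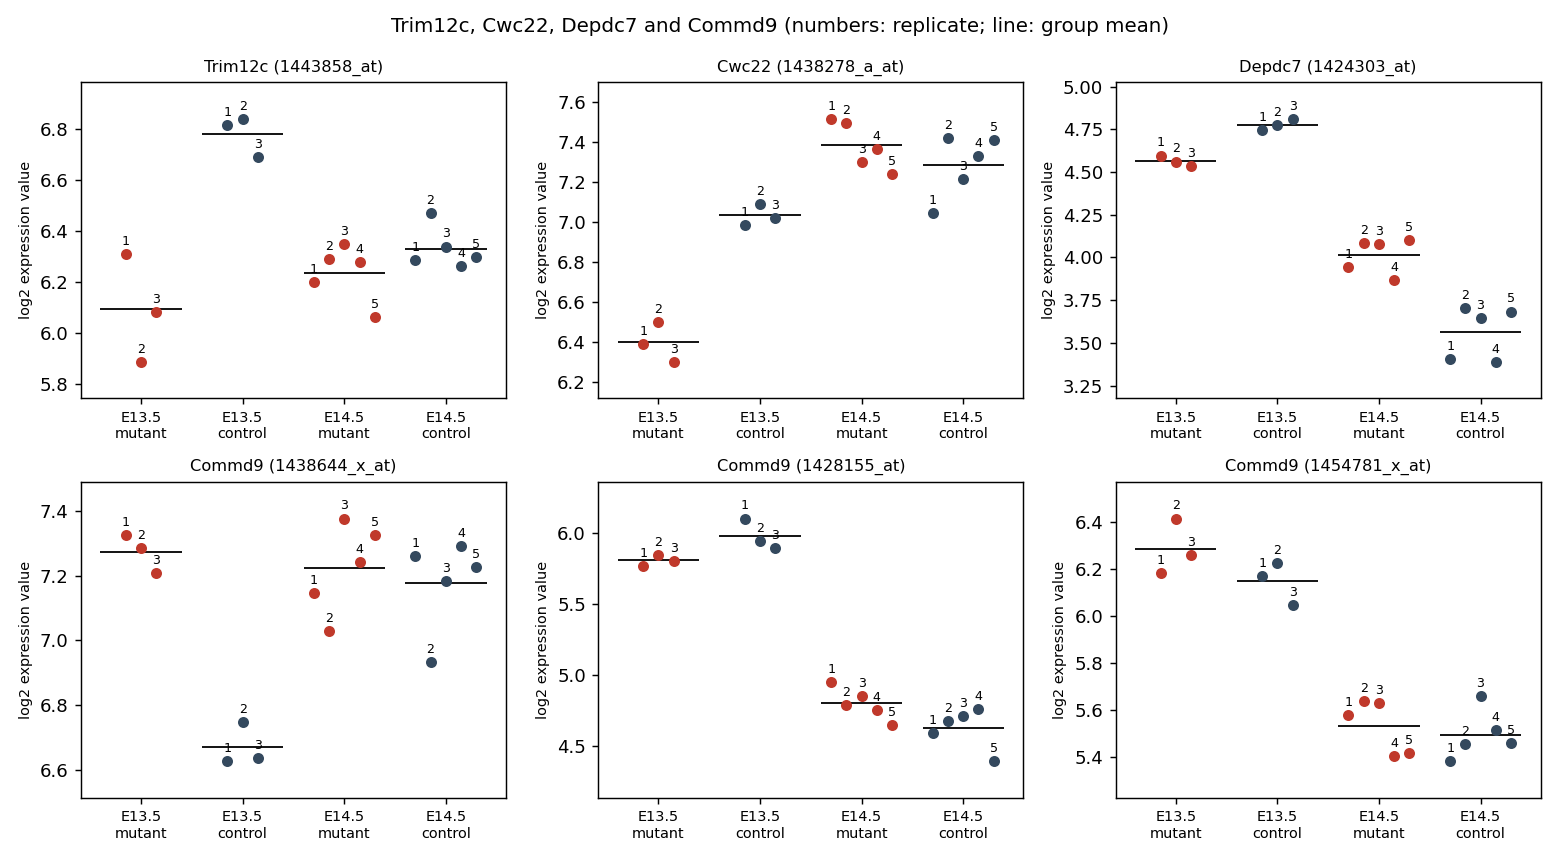
Log2 expression value (vertical axis) of Trim12c, Cwc22, Depdc7 and the 3 tested Commd9 probe sets in the 4 groups, with each array as a numbered point and group means as lines. Trim12c and Cwc22 are lower in all 3 E13.5 mutants than in the controls, Commd9 1438644_x_at is higher, 1428155_at is lower and 1454781_x_at overlaps.

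Genotype differences were taken from 1 limma fit of all 16 arrays with the E14.5 batch as a term, and are given as mutant minus control on the log2 scale with the standard error. At E13.5 they were -0.69 ± 0.10 for Trim12c, -0.64 ± 0.10 for Cwc22 and 0.60 ± 0.08 for Commd9 1438644_x_at, ratios of 0.620, 0.644 and 1.52. Their 95% intervals were -0.90 to -0.48, -0.85 to -0.42 and 0.44 to 0.77. Commd9 1428155_at differed by -0.17 ± 0.09 and 1454781_x_at by 0.14 ± 0.09. Depdc7 differed by -0.21 ± 0.09.

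After Benjamini-Hochberg adjustment over all probe sets at a threshold of 0.05, 3 of the 14 member probe sets were called at E13.5, those of Trim12c, Cwc22 and Commd9 just named, where 0.0608% of all tested probe sets (12) were called. Since the rule used this contrast, nothing is read from that count. With the E13.5 arrays fitted alone Trim12c was not called, and it was not called without mutant 3 or without any 1 of the 3 controls, at differences between -0.80 and -0.59. Cwc22 was not called without mutant 1, without mutant 3, without any 1 of the 3 controls or without E14.5 control 3, and Commd9 was not called without mutant 1 or control 3, at differences that stayed between -0.69 and -0.59 for Cwc22 and between 0.58 and 0.64 for Commd9. Skeletal muscle markers (10 of 10 tested) averaged 7.07 to 7.42 in E13.5 mutants and 6.37 to 6.71 in E13.5 controls, palate mesenchyme markers averaged 8.55 in each mutant and 8.64 to 8.78 in controls, and their part in these differences was not tested.

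At E14.5 Depdc7 differed by 0.45 ± 0.07 (95% interval 0.30 to 0.60, ratio 1.37), with 0.46 in batch 1 and 0.44 in batch 2. It was the only member probe set called, 1 of 14, where 1.25% of all tested probe sets (246) were called. It was still called with any 1 array left out, but not with the E14.5 arrays fitted alone (0.45 ± 0.08) or with E14.5 batch 1 alone. Oral epithelium markers (9 of 10 on the array, all 9 tested) averaged 7.92 to 8.17 in E14.5 mutants and 7.60 to 7.69 in E14.5 controls, also without overlap, and their part in the difference was not tested.

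Wdfy1 differed at E14.5 by -1.54 ± 0.39, -1.43 ± 0.40 and -1.22 ± 0.32 for probe sets 1435588_at, 1437358_at and 1424749_at, and none was called. Within batch 1 these Wdfy1 differences were -1.36, -1.15 and -1.20, and within batch 2 they were -1.66, -1.63 and -1.23. All 3 were called when E14.5 control 1 or control 4, a control at the mutants' level, was left out. With all arrays, 1435588_at was also called when the fit had no batch term. Without E14.5 control 5 they were -1.32, -1.18 and -1.13. With sex as a term they were -1.28, -1.18 and -0.98.

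Tmem87a differed by 2.18 ± 0.66 at E14.5, a ratio of 4.54, with 1.25 in batch 1 and 2.81 in batch 2, and was not called. It was called only when control 3, at the mutants' level, was left out, among 16 fits that each left out 1 array. Without control 5, the lowest array, the difference was 1.69, and with sex as a term it was 2.58. Its 95% interval was 0.78 to 3.59.

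For the genes split within both genotypes the E14.5 differences were small beside their errors: -0.06 ± 0.70 for Dnph1, -0.15 ± 0.53 and 0.0038 ± 0.28 for Ang 1438936_s_at and 1438937_x_at, and 0.19 ± 0.43 for Zfp874a. At E13.5 Dnph1 differed by 0.85 ± 0.90, and by 0.17 without control 3. Because the fit shared 1 spread per probe set over both stages, E13.5 errors of the split genes carry the spread of their E14.5 arrays. For Tmem87a the E13.5 difference was -0.06 ± 0.85 in that fit and -0.06 ± 0.06 with the E13.5 arrays alone. The shared spread also made E14.5 errors smaller than the E14.5 arrays alone gave. With those arrays alone the error was 0.78 for Tmem87a, and 0.46, 0.48 and 0.37 for Wdfy1 1435588_at, 1437358_at and 1424749_at.

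**Figure D3:**
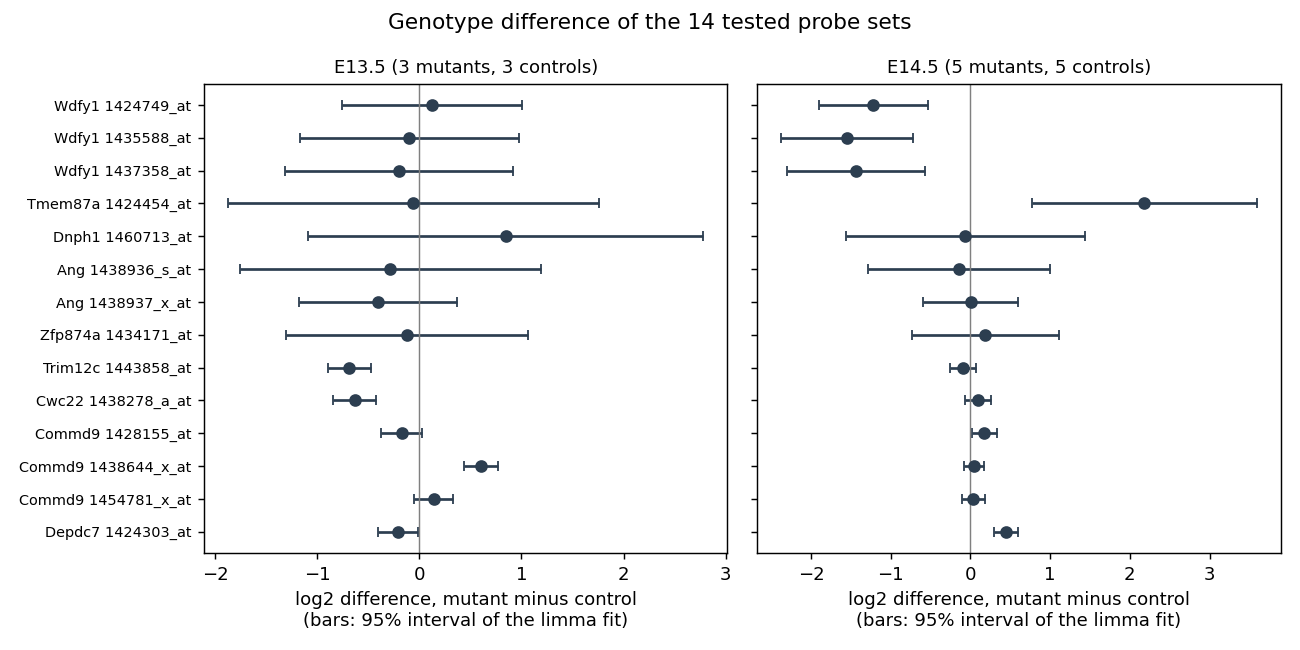
Log2 difference, mutant minus control (horizontal axes), of the 14 tested probe sets at E13.5 (left, 3 mutants and 3 controls) and E14.5 (right, 5 mutants and 5 controls); points are limma estimates and bars 95% intervals. Wide bars belong to Wdfy1, Tmem87a, Dnph1, Ang and Zfp874a, and Depdc7 lies at -0.21 at E13.5 and 0.45 at E14.5.

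Mutant and control arrays lay apart, with no overlap, in 6 of 14 member probe sets at E13.5, where 16.8% of all tested probe sets had none, and in 3 of 14 at E14.5, where 3.72% had none. The difference between stages (E14.5 minus E13.5) was 0.66 ± 0.12 for Depdc7, 0.74 ± 0.12 for Cwc22, 0.59 ± 0.13 for Trim12c and -0.56 ± 0.10 for Commd9 1438644_x_at. None of the 14 was called for it, where 0.0456% of tested probe sets (9) were called. Under alternatives Cwc22 was called with a filter at a log2 value of 6, with arrays centred on their medians and without E14.5 control 1 or control 5, Commd9 1438644_x_at with further quantile normalisation and without E14.5 control 1 or control 2, and Depdc7 with arrays centred on their medians and without E14.5 control 2. These counts used the contrasts that chose the genes and are read no further.

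To see which genes followed each member, all tested genes were ranked by the size of Pearson's r with it over 16 arrays, after centring within E13.5, E14.5 batch 1 and E14.5 batch 2. Each gene entered by whichever of its tested probe sets had the largest r in size. A gene with more probe sets thus had more chances to rank high, which the shares per gene do not take into account. Chromosomes and gene order come from the RefSeq gene table of GRCm38.p6, which placed 11088 of 11115 tested genes. The counts below are given beside the share of tested genes on that chromosome, with no p. This centring leaves genotype in, so genes that share a member's genotype difference can rank high.

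Dnph1, on chromosome 17, had 9 genes of that chromosome among its 20 most like, where 4.70% of tested genes, or 0.94 of 20, lie there. The 3 most like were Rpl7l1 (r = 0.991, related to a ribosomal protein), Med20 (0.959, a Mediator subunit) and Polr1c (0.942, a subunit shared by RNA polymerases I and III), and all 9 lay within 21 tested genes of Dnph1. Rpl7l1 read 0.54, 3.00, 1.09, 3.48 and 1.28 in E14.5 mutants, against 0.67, 4.17, 1.04, 3.20 and 1.15 in E14.5 controls. The high arrays were again 2 and 4 of each genotype. Its low arrays, at 0.54 to 1.28, lay below the E14.5 array medians of 1.63 to 1.66, and those of Dnph1 lay at 1.93 to 2.78. Little can be read from the order of arrays at such low values. At E13.5 Rpl7l1 read 5.41, 5.31 and 6.27 in mutants and 5.46, 5.38 and 2.92 in controls, with control 3 lowest and mutant 3 highest, as for Dnph1.

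Med20 moved over a smaller range, with 7.20, 7.89, 7.34, 7.89 and 7.18 in E14.5 mutants and 7.03, 8.14, 7.12, 7.67 and 7.18 in E14.5 controls. Arrays 2 and 4 were the high ones in each genotype. Dlk2, a Notch pathway ligand relative with 1 tested gene between it and Dnph1, went the other way with an r of -0.906. Zfp318, with no tested gene between, had an r of 0.839.

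Tmem87a, on chromosome 2, had 10 genes of that chromosome among its 20 most like, where 7.89% of tested genes, or 1.58 of 20, lie there. Bloc1s6, a subunit of the complex that builds lysosome-related organelles, had an r of 0.979 with 24 tested genes between, and Haus2, a subunit of the spindle's augmin complex, an r of -0.919 with 3 between. The other gene among the 3 most like was Hnrnpab (0.895, chromosome 11), which encodes an RNA-binding protein. Bloc1s6 read 3.86, 3.86, 3.96, 4.14 and 4.07 in E14.5 mutants, against 1.86, 4.00, 3.81, 2.31 and 1.62 in E14.5 controls. Controls 1, 4 and 5 were low, as for Tmem87a, at values around the E14.5 array medians of 1.63 to 1.66.

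Haus2 read 4.89, 5.23, 4.95, 4.99 and 5.02 in E14.5 mutants, against 5.74, 5.07, 5.10, 5.70 and 5.63 in E14.5 controls, so the same 3 controls were high. Of the 10 followers on chromosome 2, 7 lay within 24 tested genes of Tmem87a while Nr4a2, Tpd52l2 and Ptges lay 233, 378 and 326 tested genes away. The count was 5 when genotype was centred as well, and 4 without E14.5 control 5.

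**Figure D4:**
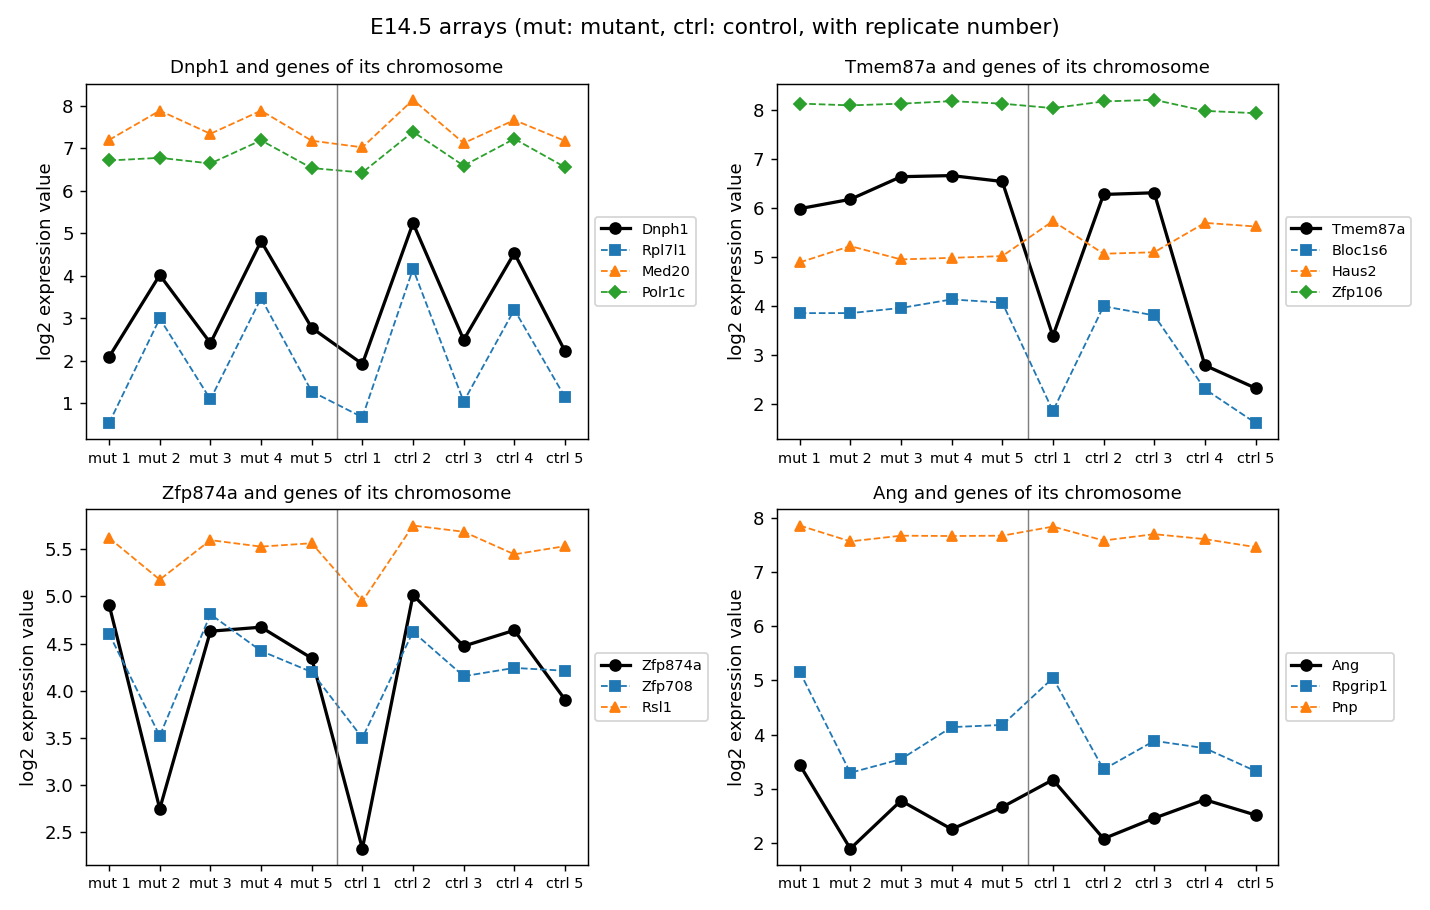
Log2 expression value (vertical axes) of Dnph1, Tmem87a, Zfp874a and Ang (black; Ang by 1438937_x_at) and of genes most like them on the same chromosome, over the 10 E14.5 arrays, mutants left of the line and controls right; lines only join the points of a gene. Rpl7l1 is high on arrays 2 and 4 of each genotype like Dnph1, and Haus2 runs opposite to Tmem87a.

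Ang, on chromosome 14, had 7 genes of that chromosome among the 20 most like probe set 1438937_x_at and 2 among the 20 most like 1438936_s_at, where 3.39% of tested genes, or 0.678 of 20, lie there. Rpgrip1, a protein of the photoreceptor cilium, was among the 3 most like both probe sets (r = 0.848 and 0.877). The others were Pnp (0.825, the purine nucleoside phosphorylase beside Ang) and Ppp1r3e (0.812, a glycogen-targeting phosphatase subunit) for 1438937_x_at, and Abhd14b (0.888) and Ifrd2 (0.844), both on chromosome 9, for 1438936_s_at. Chromosome 9 held more of the 20 genes most like 1438936_s_at than chromosome 14 did, also with genotype centred. With genotype left in, the chromosome 9 genes were Abhd14b, Ifrd2, Pik3r4 (0.818), Hemk1 (-0.793), Fxyd2 (-0.764), Snx19 (0.751), Tcf12 (0.727), Cfap300 (-0.723) and Abhd14a (0.722). Rpgrip1 read 5.16, 3.30, 3.55, 4.14 and 4.18 in E14.5 mutants, against 5.05, 3.36, 3.89, 3.75 and 3.33 in E14.5 controls. Mutant 1 and control 1 were the high arrays, as for Ang.

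Zfp874a, on chromosome 13, had 4 genes of that chromosome among its 20 most like, where 3.81% of tested genes, or 0.761 of 20, lie there. Zfp708 (r = 0.901) and Rsl1 (0.869) are zinc finger genes of the same cluster, with 6 and 4 tested genes between, and the next was Tnrc6a (-0.847, chromosome 7), a partner of Argonaute proteins. Zfp708 read 4.60, 3.52, 4.81, 4.42 and 4.20 in E14.5 mutants, against 3.50, 4.63, 4.15, 4.24 and 4.21 in E14.5 controls. Mutant 2 and control 1 were low, as for Zfp874a. Probes of such related zinc finger genes may pair with each other's RNA, which was not tested.

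Wdfy1 had 0, 1 and 1 genes of chromosome 1 among the 20 most like 1435588_at, 1437358_at and 1424749_at, where 5.66% of tested genes lie there. In the same order of probe sets its most like genes were Mtmr4 (r of -0.941, -0.924 and -0.886), an endosomal lipid phosphatase on chromosome 11, Lsm12 (0.900, 0.881 and 0.882, chromosome 11), Cacul1 (-0.902 and -0.900 for the first and second, chromosome 19) and, for 1424749_at, Tmeff2 (-0.894, chromosome 1). Trim12c had 0 of 20 on chromosome 7, where 7.35% lie, and was most like Plpp3 (0.905), Gria1 (0.905) and Dnajc10 (0.885). Trim12c was chosen on its E13.5 genotype difference, and Gria1 read 4.24, 3.70 and 3.90 in E13.5 mutants against 5.15, 5.19 and 5.33 in controls. With genotype centred as well, none of these genes stayed among the 20 most like Trim12c.

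For the 3 remaining genes of chromosome 2, Cwc22 had 3 of 20, the Commd9 probe sets had 2, 3 and 2, and Depdc7 had 6, against the same 1.58. The median number of tested genes between was 129 for Cwc22, 210, 3 and 167 for Commd9 and 101.5 for Depdc7, against 9 for Dnph1. Cwc22 was most like Tmem258 (r = -0.916), Zfp846 (0.913) and Rbl2 (0.896). Commd9 1438644_x_at was most like Ankrd29 (-0.892), Cxcl5 (-0.871) and Cwc22 (-0.867), an r that was -0.439 once genotype was centred. Commd9 1428155_at was most like Pstk (0.884), Psmc6 (0.871) and Ggps1 (0.862), and 1454781_x_at was most like Phf21a (-0.820), Psmg2 (0.820) and Rabac1 (0.816). Depdc7 was most like 1110008P14Rik (0.903, chromosome 2), Ckap4 (-0.885) and Hbegf (0.883), and its count was 3 with genotype centred. With genotype centred, no gene named here for Cwc22, Commd9 or Depdc7 stayed among the 20 most like the same probe set.

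With genotype centred as well, Dnph1 had 11 followers on its chromosome, Zfp874a 4, and Ang 5 and 1 for 1438937_x_at and 1438936_s_at. Without E14.5 control 5, Dnph1 had 8, Zfp874a 4, and Ang 8 and 2. Between members, Tmem87a and Depdc7, both on chromosome 2, had an r of 0.703, which was 0.459 with genotype centred.

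**Figure D5:**
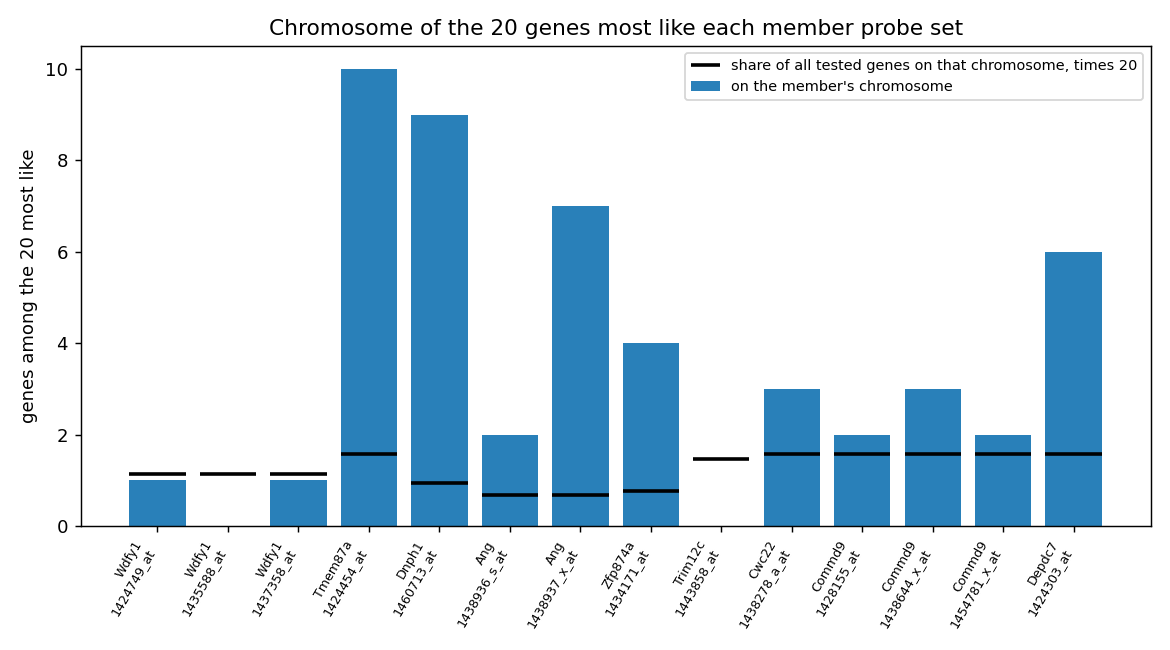
Number of genes on the member's own chromosome (vertical axis) among the 20 genes most like each of the 14 tested probe sets; black lines give the share of all tested genes on that chromosome, times 20. The bars reach 10 for Tmem87a and 9 for Dnph1, and 0 for Trim12c and for Wdfy1 1435588_at.

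Genes lying beside the members were read at 1 probe set per gene, for the 5 tested genes on each side. It was the probe set with the highest mean, which need not be the one that followed a member. Haus2, for example, was read here by another probe set, with -0.15 ± 0.11 at E14.5. Of these 90 neighbours limma called none at E13.5, where 0.0990% of genes (11 of 11115) were called, and 1 was called at E14.5, where 2.63% (292) were. That gene was Snap23, which encodes a membrane fusion protein, with -0.23 ± 0.05. Zfp106 lies between it and Tmem87a. At an unadjusted p under 0.05 there were 11 neighbours at E13.5 and 18 at E14.5, beside 9.54% and 17.3% of all genes. The neighbours' differences ran from -0.58 to 1.16 at E13.5 (median -0.06) and from -0.30 to 0.55 at E14.5 (median 0.01), against medians of -0.04 and 0.02 over all genes.

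Functional relatives of the members were listed as well, in 9 lists that held 90 genes, of which 60 were tested. By limma none was called in either contrast, beside the same 0.0990% and 2.63% of all genes, and 3 at E13.5 and 11 at E14.5 had an unadjusted p under 0.05. The lists' median differences were -0.05 at E13.5 and 0.04 at E14.5, against -0.04 and 0.02 over all genes. The COMMD/CCC complex had all 15 members tested, and Commd2, its gene with the smallest p, differed by 0.16 ± 0.05 at E14.5. Of the exon junction complex list, 10 of 14 were tested, and Upf1, the helicase of nonsense-mediated decay, differed by -0.25 ± 0.10 at E13.5.

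Among 8 of 15 zinc finger relatives tested, Zfp748 differed by 0.15 ± 0.04 at E14.5. Of the nucleotide salvage list, 8 of 10 were tested, and Nudt1, which clears oxidised nucleotides, differed by 0.21 ± 0.05 at E14.5. Of the FYVE and WD40 list, 7 of 9 were tested, and Wdfy3, an autophagy adaptor, differed by -0.28 ± 0.10 at E13.5. The TMEM87 list had 4 of 5 tested, with Gpr180 at -0.14 ± 0.08 at E14.5. The DEP domain list had 5 of 5 tested, with Nprl3, a subunit of a complex that restrains mTORC1, at -0.13 ± 0.08 at E13.5. Only 2 of 7 angiogenin relatives and 1 of 10 TRIM5-like genes were tested, where Rnh1, the ribonuclease inhibitor, had 0.06 ± 0.04 at E14.5 and Trim21 had -0.09 ± 0.09 at E13.5.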

How the data were processed

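RNA of palate mesenchyme tissue was hybridised to Affymetrix arrays, and the authors deposited log2 expression values per probe set made with GCRMA, per the submitters' processing notes with a version not given in the sources used here. Precision is limited by the number of arrays. The members and all lists were chosen with earlier results of these data known. Of 45101 probe sets, 34958 have 1 annotated gene, 932 several and 9211 none. Probe sets with a log2 value of at least 4 on at least 3 of 16 arrays were kept, leaving out 64 control probe sets. They were fitted with limma 3.58.1 in R 4.3.3 (lmFit and eBayes, 4 groups and E14.5 batch), with Benjamini-Hochberg adjustment over all of them; p-values measure the spread between these arrays, which the labels do not tie to separate litters. The code was tested on simulated data. The targeted gene is not reported here.

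Genes were named by rule: all members, the 3 genes most like each tested member probe set, called neighbours, and called relatives or else the one with the smallest p. Other genes were named after their values were seen. Replicate numbers are shared by the genotypes, and the main fit did not pair arrays by them. Over all probe sets, same-numbered arrays' deviations from the mean of their group and batch correlated at -0.383 to 0.171. With so few arrays per group and batch, these correlations cannot decide whether the numbers pair arrays. Some genes, such as Dnph1 at E14.5, were high on the same numbers in both genotypes. Alternatives changed the filter, unit of the fit, normalisation, batch, sex, block and arrays. Tables and figures used Python 3.11.15 and matplotlib 3.10.9.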

Additional observations from a re-analysis of the deposited data

Results flagged for a closer look

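Within groups of 5 arrays, 2 single values of the members stood apart by Dixon's criterion among 36 groups scanned, and chance meets it in about 1 in 20 groups. Zfp874a and Ang were also chosen for arrays that split, so these values are a description. Zfp874a 1434171_at was lowest in E14.5 mutant 2 at 2.74, with the other mutants between 4.34 and 4.91. Ang 1450717_at, an untested probe set, was highest in E14.5 mutant 1 at 2.02, with the other mutants between 1.44 and 1.59. The genotype difference of Depdc7 was 0.66 ± 0.12 larger at E14.5 than at E13.5 on the log2 scale. All 3 E13.5 mutants lay below the E13.5 controls and all 5 E14.5 mutants above the E14.5 controls, and since Depdc7 was chosen on its genotype differences, this is a description.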

How the results depend on the processing

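At E13.5, 12 probe sets were called, against 24 with arrays centred on their medians, 6 with E14.5 batch 1 alone and 4 to 24 without 1 array in turn (4 without E13.5 control 3, 7 without E13.5 mutant 1 or 3, 24 without E13.5 mutant 2). At E14.5, 246 were called (133 higher, 113 lower), against 412 with no batch term, 36 with the arrays of the stage alone, 32 with batch 1 alone, 137 with batch 2 alone, 140 with a sex term and 91 to 318 without 1 array in turn (91 when E14.5 mutant 5 was dropped, 100 for mutant 1, 154 for mutant 3, 130 for control 2 and 129 for control 3). For the difference between stages, 9 were called, against 15 with batch 1 alone and 1 to 20 without 1 array in turn. It was 1 without E13.5 mutant 3, 2 without E13.5 control 2 or 3, 3 without E14.5 mutant 4, 4 without E13.5 mutant 1 or E14.5 mutant 2, 3 or 5, and 20 without E14.5 control 1. With the replicate block 5, 82 and 0 probe sets were called by limma, the last with 1593 at an unadjusted p under 0.05, and the called members Trim12c, Cwc22 and Commd9 1438644_x_at were lost. Cwc22 was also lost with further quantile normalisation, and these 3 with E14.5 batch 1 alone, Trim12c also with batch 2 alone. The cause was not tested. Of 762 member differences under an alternative, 757 moved by less than the residual SD, and no called one changed sign. The other 5 were Trim12c (-0.41) and 2 Commd9 probe sets (0.19) as means over a gene's probe sets at E13.5, and Cwc22 (0.27) and Commd9 1454781_x_at (0.19) in E14.5 batch 1. The count of 757 is no measure of stability for the split genes, whose arrays widen the residual SD (1.175 for Tmem87a, 1.252 for Dnph1). Tmem87a at 1.25 in E14.5 batch 1, against 2.18 in the main fit, fell within it. Dropping an array of 1 stage also cannot move a difference at the other stage. Followers without E14.5 control 5 were counted after seeing the data.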

Other observations

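Other genes outside the 9 also had wide gaps between E14.5 arrays, and those named here were chosen after their values were seen. Phgdh 1454714_x_at, for the first enzyme of serine synthesis, read 1.97 in mutant 2 and 1.77 in control 3, while the other E14.5 arrays lay at 8.17 or above. Smad2 1420634_a_at, for a mediator of TGF-beta signalling, read 3.64 in control 1 and 3.72 in control 2, with the other arrays at 6.20 or above. Dlx1as, an antisense transcript of the Dlx1 locus, read 5.01 in control 1 and 4.58 in control 3, with the others at 7.48 or above, and Egr3, an immediate early transcription factor, was low in the same 2 controls at 3.92 and 2.81. Odam, Mymx and Irx2 also split with those 2 controls low. Skeletal muscle markers averaged 5.62 in both, the lowest of the E14.5 arrays. Whether tissue content had a part in these gaps was not tested. The neutrophil genes S100a8 and S100a9 were highest in control 4, at 8.14 and 6.08, with the other arrays at most at 5.62 and 2.76.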
